A study of Mus musculus with 29 samples.

Results

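Colon RNA of mice given dextran sulfate sodium (DSS) was compared with colon RNA of untreated wild-type mice, in 6 of the 29 RNA-seq libraries of a series on mouse colitis models. The libraries were chosen by their treatment labels, DSS mice 5, 6 and 8 against wild-type mice 1, 2 and 4, with 1 library per mouse (n = 3 per group). The other libraries came from 5 further colitis models and 2 control groups of lymphocyte-deficient mice, and the question was how the transcriptomes of the models compare. According to the labels both groups were Balb/C mice, and the DSS group received 3% DSS in drinking water for 5 days and was culled at day 10, while the wild-type mice received nothing. The study's methods name C57BL/6 for its DSS mice and an earlier day of culling. H2-Ea-ps, the MHC class II E alpha gene that Balb/C mice transcribe and C57BL/6 mice do not, had 0 to 1 counts in the 3 wild-type libraries and 0 in the 3 DSS libraries. In the 3 Rag2-/- control libraries, also labelled Balb/C, it had 784 to 1462 counts, so the counts of both groups went against the label in the same way. No count fell on 4 Y-linked genes in any of the 6 libraries. The age of the mice is not given, and the labels do not say whether mice were littermates or shared a cage.

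DSS is a sulfated polysaccharide that damages the epithelium of the colon, so that luminal bacteria reach the lamina propria. Neutrophils and monocytes are recruited by chemokines, and T cells and innate lymphoid cells release interferon gamma, IL-17 and IL-22 that act on the epithelium. The epithelium heals through proliferating crypt cells and a fetal-like state of wound-associated cells, and the model is used for the acute injury and repair of ulcerative colitis.

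Promoter sequence is shown for 6 genes, picked from the neutrophil chemokine, NF-kB feedback and interferon groups among those whose windows hold the motif shown. Genes of these groups are known to be transcribed through the NF-kB site (chemokine and feedback genes) or the interferon-stimulated response element (interferon genes). Whether these sites bear on the levels in these mice was not tested. Each run is the 250 bases before the RefSeq gene start on GRCm38.p6, written 5′ to 3′ on the gene's strand, with matches to the motif in capitals. The first 3 have the NF-kB consensus in capitals. The last 3 have the letters GAAA, any 2 bases, and GAAA again in capitals. Both motifs were searched on both strands, and only the named motif is capitalised in each run. The windows are Cxcl2 at chr5:90903649-90903898 (plus strand), Cxcl3 at chr5:90785851-90786100 (plus strand), Tnip3 at chr6:65590148-65590397 (plus strand), Isg15 at chr4:156200819-156201068 (minus strand), Gbp2 at chr3:142620413-142620662 (plus strand) and Cxcl10 at chr5:92348890-92349139 (minus strand).
Cxcl2: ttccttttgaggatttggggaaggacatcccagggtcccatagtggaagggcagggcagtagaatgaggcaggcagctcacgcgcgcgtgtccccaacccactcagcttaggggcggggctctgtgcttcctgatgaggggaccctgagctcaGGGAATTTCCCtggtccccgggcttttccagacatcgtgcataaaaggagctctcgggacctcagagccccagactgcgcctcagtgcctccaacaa
Cxcl3: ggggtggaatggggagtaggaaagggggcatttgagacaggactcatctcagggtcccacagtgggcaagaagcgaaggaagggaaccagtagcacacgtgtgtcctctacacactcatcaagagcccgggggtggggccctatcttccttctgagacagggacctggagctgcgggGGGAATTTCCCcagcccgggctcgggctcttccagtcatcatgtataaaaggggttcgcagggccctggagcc
Tnip3: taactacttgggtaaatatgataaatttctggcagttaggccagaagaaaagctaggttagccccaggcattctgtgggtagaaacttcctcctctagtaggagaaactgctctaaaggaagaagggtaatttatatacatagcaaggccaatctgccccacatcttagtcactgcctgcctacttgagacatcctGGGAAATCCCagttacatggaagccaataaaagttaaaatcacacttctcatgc
Isg15: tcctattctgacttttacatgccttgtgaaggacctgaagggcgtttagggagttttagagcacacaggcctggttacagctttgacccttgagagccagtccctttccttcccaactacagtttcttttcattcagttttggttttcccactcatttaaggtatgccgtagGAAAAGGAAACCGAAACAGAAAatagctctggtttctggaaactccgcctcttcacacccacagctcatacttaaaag
Gbp2: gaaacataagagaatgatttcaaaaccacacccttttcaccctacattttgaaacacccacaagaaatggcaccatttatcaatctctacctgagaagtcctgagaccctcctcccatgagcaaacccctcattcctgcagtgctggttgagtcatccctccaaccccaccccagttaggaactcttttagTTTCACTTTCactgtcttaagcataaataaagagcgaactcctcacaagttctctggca
Cxcl10: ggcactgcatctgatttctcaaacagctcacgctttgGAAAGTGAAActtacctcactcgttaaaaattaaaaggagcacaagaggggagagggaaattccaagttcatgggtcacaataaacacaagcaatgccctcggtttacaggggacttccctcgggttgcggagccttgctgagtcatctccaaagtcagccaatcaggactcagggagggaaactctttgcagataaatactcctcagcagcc
The capitalised match farthest from the gene began 97 bases before the gene start in Cxcl2, 73 in Cxcl3, 54 in Tnip3, 78 in Isg15, 59 in Gbp2 and 213 in Cxcl10. In Isg15 the 3 matches overlap each other. In windows of 300 bases, which add 50 bases after the start, the GAAA repeat was found in 3.99% of all 27025 genes with a window, in 8 of the 15 interferon-gamma response genes with one, in 8 of 12 antiviral genes, in 1 of 12 NF-kB feedback genes and in 0 of 5 neutrophil chemokines. The NF-kB consensus was found in 9.55% of all genes, in 8 of 12 NF-kB feedback genes, in 3 of 5 neutrophil chemokines, in 5 of 15 interferon-gamma response genes and in 3 of 12 antiviral genes. The interferon-gamma genes with it included Cxcl10 and Gbp2, whose NF-kB matches are not in capitals above. A match in these letters is a description of the sequence and not a measured binding site.

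The deposited values are raw counts of reads per gene. Total counts ran from 11519242 to 13524777 in the wild-type libraries and from 12287039 to 13801015 in the DSS libraries, and levels are given as CPM, counts scaled to the same library total for all mice, on the TMM scale. Of 54532 genes 18616 were tested, and a gene is called higher or lower where its Benjamini-Hochberg adjusted p is under 0.05 in edgeR's quasi-likelihood test. The values after ± are standard errors of the log2 fold change unless SD is written. The labels do not state that the mice came from separate experiments, so p-values measure the spread between mice and not between experiments. That spread was estimated over all 29 libraries in 9 groups, so it rests on the other mice of the series as well. In edgeR on the 2 groups compared alone, 2478 genes were higher and 2044 lower in DSS. An exact two-sided permutation test of 3 against 3 mice cannot go below 0.10.

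Mouse 8 stood apart from the other DSS mice. The root mean square log2 difference over all genes was 0.36 between DSS mice 5 and 6 and 0.70 between mouse 8 and either of them, against 0.23 to 0.30 between wild-type mice. From the wild-type mice, mice 5 and 6 lay at 0.65 to 0.69 and mouse 8 at 1.15 to 1.17, so mouse 8 was about as far from mice 5 and 6 as these were from the controls. The first principal component, with 80.5% of the variance of the 6 libraries, ordered the wild-type mice, mice 5 and 6, and mouse 8. The depth and the number of genes with a count in mouse 8 (12287039 and 23400) lay within the range of the 6 libraries. Markers of the colon epithelium were present in all 6 libraries, with summed levels of 10550 to 12660 CPM over 11 genes in wild-type mice and 7775, 10340 and 7196 CPM in DSS mice 5, 6 and 8. Smooth muscle genes summed to 7251 to 8930 CPM over 12 genes in wild-type mice and to 9484, 12870 and 5226 CPM in the DSS mice, lowest in mouse 8. How far the share of muscle in a sample bears on the other differences was not tested.

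In the DSS group 3299 genes (17.7% of those tested) were higher and 3037 (16.3%) were lower than in wild-type mice. The mice of the groups did not overlap for 3111 of the higher and 2953 of the lower genes, while over all genes tested the DSS mice were all above the wild-type mice for 25.9% and all below for 24.0%. Without mouse 8 the counts were 1944 higher (10.4%) and 1897 lower (10.2%). The counts of called members in the gene groups below are to be read beside these shares over all genes. Of the 3299 higher genes 1894 kept their call without mouse 8, 2920 without mouse 5 and 2965 without mouse 6. Of the 3037 lower genes 1842 kept it without mouse 8, 2559 without mouse 5 and 2722 without mouse 6. Leaving out a wild-type mouse gave 2400 to 2628 higher and 2378 to 2568 lower genes. The calls that held without each DSS mouse in turn were 1698 of the higher genes (51.5%) and 1723 of the lower genes (56.7%).

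Mouse 8 was the most extreme DSS mouse for 77.6% of the higher genes and for 74.1% of the lower genes. These genes were called with mouse 8 included, which favours genes where it is extreme. Over all 18616 genes tested mouse 8 was the highest DSS mouse for 6800 and the lowest for 7316. The median log2 difference from the wild-type mean over the higher genes, on log2(CPM + 1), was 0.69 in mouse 5, 0.73 in mouse 6 and 1.25 in mouse 8. Over the lower genes it was -0.66, -0.54 and -0.92 in the same order. Counting all genes tested, 615 lay at least 1 log2 unit above the wild-type mean in all 3 DSS mice and 433 lay that far below it. Mouse 8 alone passed 1 log2 unit for 1158 genes above and 871 below. Mouse 5 alone did so for 142 above and 89 below, and mouse 6 alone for 100 above and 37 below. For 31 genes mice 5 and 6 were at least 1 log2 unit above the wild-type mean and mouse 8 was not. For 29 genes mice 5 and 6 were that far below it and mouse 8 was not.

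**Figure D1:**
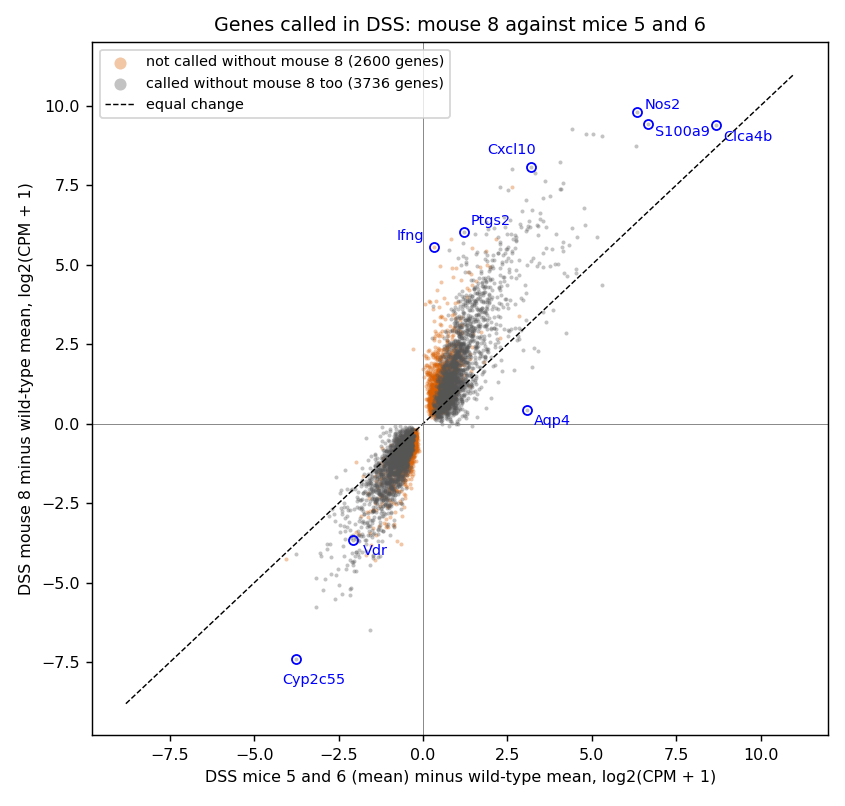
Each point is a gene called higher or lower in DSS, with the log2(CPM + 1) difference of the mean of DSS mice 5 and 6 from the wild-type mean on the x axis and that of DSS mouse 8 on the y axis. Grey points kept their call without mouse 8 and orange points did not. Of these genes, called with mouse 8 included, 86.5% of the higher and 85.4% of the lower lay farther from 0 in mouse 8 than in the mean of mice 5 and 6.

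**Figure D2:**
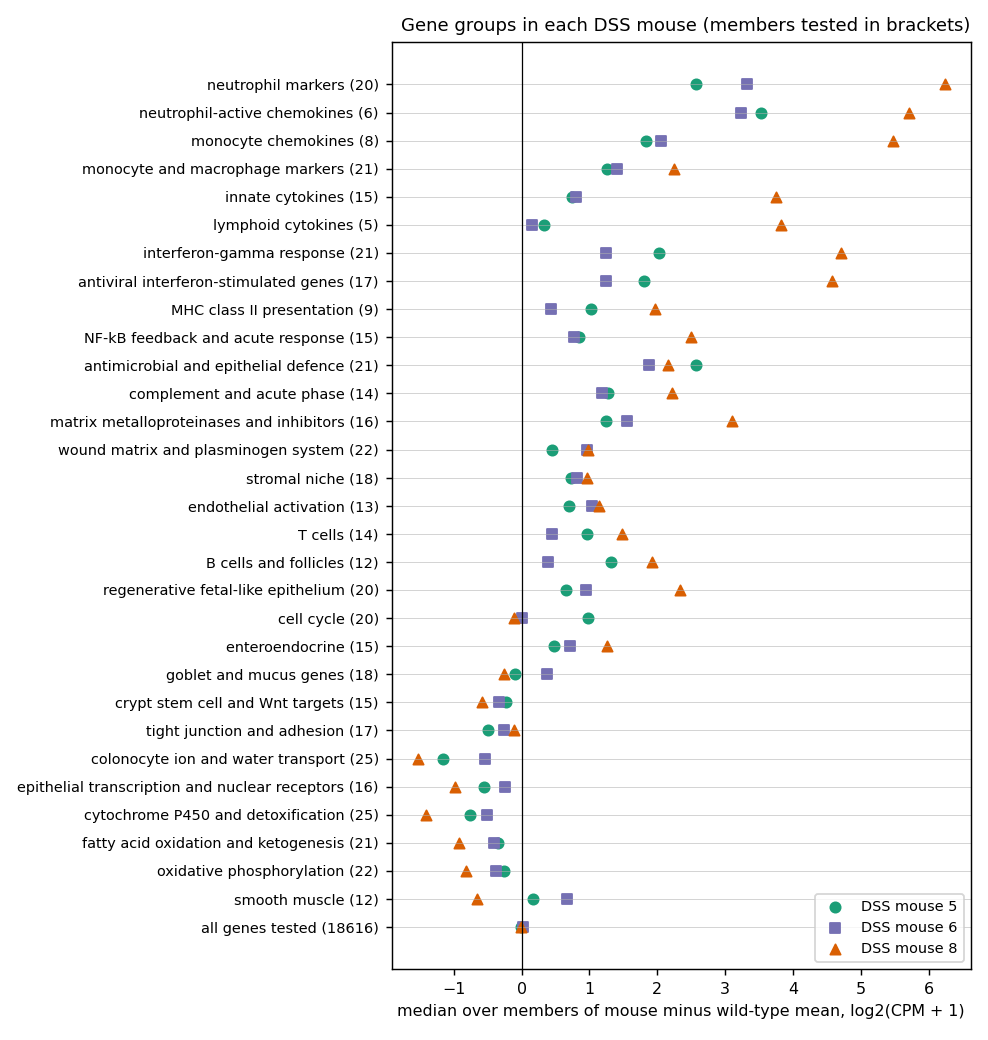
Median log2(CPM + 1) difference from the wild-type mean over the members of each gene group, for each DSS mouse, with the number of members tested in brackets. Mouse 8 is farthest to the right in most immune groups, while its values lie beside those of mice 5 and 6 in the antimicrobial, stromal and wound matrix groups.

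Neutrophil markers rose together in the DSS mice. Of the 20 members tested 19 were higher in DSS (17.7% of all genes were) and none was lower, and 18 were higher without mouse 8 (10.4% of all genes were). The median log2 fold change was 7.83, or 7.54 with genes at 0 in the controls set at their lower bound and 5.58 without mouse 8, against 0.02 over all genes. The summed level of the group was 176 to 200.0 CPM in wild-type mice and 736, 998 and 3866 CPM in DSS mice 5, 6 and 8. In bulk tissue more cells of a type and more RNA per cell cannot be told apart. S100a8 (ENSMUSG00000056054, chr3:90668978-90670035 on GRCm38), a subunit of calprotectin, was at 0.305, 0.133 and 0.164 CPM in wild-type mice 1, 2 and 4 and at 67.7, 122 and 504 CPM in DSS mice 5, 6 and 8. Every DSS mouse was far above every control, and the log2 fold change was 10.11 ± 1.14 with all mice (adjusted p = 2.03e-06) and 8.83 without mouse 8 (adjusted p = 2.84e-06). S100a9, the other calprotectin subunit, was at 0.229, 0.133 and 0 CPM in the controls and 78.1, 147 and 772 CPM in the DSS mice (11.28 ± 1.28). Cxcr2, the receptor by which neutrophils follow chemokines, had no count in any wild-type library and 7.8, 11.1 and 74.6 CPM in the DSS mice. Its mean was at least 127-fold higher than the 0.246 CPM that 3 counts give in the shallowest control library, the limit of a count of 0 there. Clec4e, a receptor for mycobacterial glycolipid, had so few counts in the controls that only a ratio of means is given, 2325 (95% counting interval 644 to 19200). The granule genes, made before neutrophils leave the bone marrow, were unequal. Ltf, lactoferrin of the secondary granules, was higher at 29.7, 20.9 and 265 CPM in the DSS mice against 0.328 to 0.762 CPM (7.44 ± 1.26), and Ngp was at 1.13, 2.8 and 63.6 CPM against 0 to 0.082 CPM (adjusted p = 2.39e-04). Mpo and Elane of the primary granules had at most 5 counts in any library and were not tested, and Camp was at 0.252, 0.274 and 1.36 CPM in the DSS mice without passing the test (adjusted p = 0.0871). Cd177, a neutrophil surface protein also expressed in wild-type colon at 36.3 to 63.3 CPM, was the member with its lowest DSS level in mouse 8 (147 CPM in mouse 5 and 85.6 CPM in mouse 8).

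The chemokines that attract neutrophils rose in each DSS mouse. Of 6 tested, Cxcl1, Cxcl2, Cxcl3 and Cxcl5 were higher with and without mouse 8, and the platelet chemokines Ppbp and Pf4 did not pass (adjusted p = 0.667 and 0.605). Cxcl5 was at 2.74 to 3.2 CPM in wild-type mice and 181, 105 and 237 CPM in the DSS mice (5.84 ± 0.71, and 5.55 without mouse 8). Cxcl1 was at 17.4, 10.1 and 53.7 CPM in the DSS mice, with mouse 8 at 3.9 times the mean of mice 5 and 6. For Cxcl2, at 27.1, 38.2 and 562 CPM, that factor was 17.2, and for Cxcl3, at 7.43, 8.41 and 71.7 CPM, it was 9.05. The promoters of Cxcl2 and Cxcl3 are among those printed above.

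Monocyte and macrophage genes were higher with smaller folds. Of 21 markers 20 were higher and none lower with all mice, and 18 were higher without mouse 8, with median log2 fold changes of 1.75 and 1.36. Ccr2, the receptor that brings monocytes out of the marrow, was at 11.8 to 13.6 CPM in wild-type mice and 59.3, 77.3 and 189.5 CPM in DSS mice 5, 6 and 8 (3.07 ± 0.32, adjusted p = 9.50e-07). The complement C1q genes of tissue macrophages rose in all 3 mice, C1qa from 80.1 to 99.3 CPM to 212, 213 and 342 CPM (1.54 ± 0.18). Cx3cr1, a receptor of resident macrophages, was the member that did not pass, at 11.2 to 12.7 CPM and 17.1, 16 and 12.6 CPM (adjusted p = 0.322). Mrc1 and Cd163, receptors of resident and repair macrophages, rose without mouse 8 in the lead: Mrc1 went from 45.5 to 60.1 to 118, 170.0 and 124 CPM (1.39 ± 0.30). Ly6c2, the surface protein of inflammatory monocytes, lost its call without mouse 8 (log2 fold change 2.63 ± 0.80 with all mice and 0.23, adjusted p = 0.832, without it), since mice 5 and 6 at 9.13 and 7.66 CPM lay within the wild-type range of 3.51 to 14.1 CPM and mouse 8 was at 117 CPM. Of the 8 monocyte chemokines 7 were higher with all mice and without mouse 8. Ccl8 rose from 1.97 to 3.33 CPM to 68, 49.1 and 161 CPM (5.23 ± 0.52), and Ccl4 from 0.0666 to 0.082 CPM to 2.46, 5.95 and 187 CPM, a ratio of means of 874 (95% counting interval 299 to 4238). Ccl24 did not pass (adjusted p = 0.611).

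Among cytokines of innate cells 13 of 15 were higher and none was lower, and 10 were higher without mouse 8, with median log2 fold changes of 5.15 and 2.95. Il1b, the cytokine released by inflammasomes, was at 1.6, 0.733 and 1.72 CPM in wild-type mice 1, 2 and 4 and at 48.4, 84.2 and 1291 CPM in DSS mice 5, 6 and 8, with a log2 fold change of 8.47 ± 1.07 (adjusted p = 6.34e-06). Mouse 8 held 90.7% of the summed DSS level, and without it the log2 fold change was 5.63 (adjusted p = 1.76e-06). Tnf was at 0.733 to 1.75 CPM and 22, 15.9 and 187 CPM (5.89 ± 0.89). Osm, oncostatin M of the IL-6 family, was at 0.229 to 0.466 CPM and 4.72, 8 and 98.4 CPM (6.60 ± 0.97). Il6 itself was under 1 CPM in mice 5 and 6 and at 45.2 CPM in mouse 8, a ratio of means of 314 (95% counting interval 87 to 2594) to the controls, with an adjusted p of 3.27e-04 with all mice and 0.0214 without mouse 8. Il27, Il33 and the IL-1 receptor antagonist Il1rn lost their calls without mouse 8 (adjusted p = 0.845, 0.0798 and 0.152), and Il1rn stood at 105, 162 and 973 CPM in mice 5, 6 and 8 against 90.6 to 99.4 CPM. Il18, an epithelial cytokine, and Il23a did not pass with all mice (adjusted p = 0.417 and 0.217), and Il18 was at 94.9, 114 and 24.9 CPM against 103 to 117 CPM, with mouse 8 far below the others. Csf2 had no count in 5 of the 6 libraries and 14 counts in mouse 8, and was not tested.

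Cytokines of lymphocytes were far higher in mouse 8 than in the other DSS mice. Of 5 tested 4 were higher and none lower with all mice, and 1, Il22, was higher without mouse 8. Il22, which drives epithelial defence and repair, had no count in the controls and was at 1.89, 0.684 and 50.6 CPM in DSS mice 5, 6 and 8, a mean at least 72.1-fold above the limit of a count of 0 in the controls. Its adjusted p was 6.01e-04 with all mice and 0.00818 without mouse 8, and 41.0% of its 50-base exon windows are shared with the duplicate gene Iltifb, so reads of the pair could be split or dropped. Ifng was at 0 to 0.082 CPM in the controls and 0.441, 0.137 and 47.5 CPM in the DSS mice, a ratio of means of 646 (95% counting interval 116 to 25530), and mice 5 and 6 were within or near the limit of 0.246 CPM. Its adjusted p was 0.00193 with all mice and 0.272 without mouse 8. Il17a had no count in the controls and 0.252, 0.0684 and 13.1 CPM in the DSS mice, at least 18.2-fold above that limit, and its adjusted p without mouse 8 was 0.0752. Il4 did not pass (adjusted p = 0.574), and Il5, Il13, Il21 and Il2 had at most 3 counts in any library and were not tested.

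Markers of T cells, natural killer cells and B cells were also higher, with fewer calls when mouse 8 was left out. Of 14 T cell genes 10 were higher with all mice and 4 without mouse 8, and no T cell gene was lower in either. Cd4 rose in all 3 mice, from 5.06 to 9.1 CPM to 19.8, 22.6 and 27.8 CPM (1.82 ± 0.39), and Ctla4, an inhibitory receptor of activated and regulatory T cells, from 0.229 to 0.266 CPM to 3.21, 1.85 and 15.9 CPM (4.75 ± 0.81). Cd3e, a T cell receptor subunit, did not pass at 0.333 to 1.31 CPM and 1.45, 0.889 and 2.56 CPM (adjusted p = 0.139). Of 11 genes of cytotoxic and natural killer cells 8 were higher and 6 without mouse 8, among them the granzymes Gzma (4.28, 2.67 and 23.7 CPM against 0.2 to 0.328 CPM, 5.28 ± 1.01) and Gzmb (4.41, 4.1 and 29.2 CPM against 0.266 to 0.41 CPM, 5.23 ± 0.78). Of 12 B cell and follicle genes 7 were higher with all mice and 1 without mouse 8, Cxcl13, the chemokine that organises follicles (2.36 ± 0.41 and 1.75). Of the B cell genes 4 were higher without mouse 5 and 1 without wild-type mouse 1 or 2, and of the T cell genes 6 without either of these controls. The B cell genes were high in DSS mice 5 and 8 and near the controls in mouse 6. Ms4a1, which encodes CD20, was at 37.4, 18.6 and 55.5 CPM in mice 5, 6 and 8 against 11.4 to 16.8 CPM (1.47 ± 0.50), and its adjusted p was 0.0257 with all mice and 0.151 without mouse 8. Of 13 plasma cell genes tested 3 were higher and 2 were lower, with 2 and 0 without mouse 8. The lower ones, Jchain and Tnfrsf17, were not called without mouse 5, mouse 6, mouse 8 or wild-type mouse 4, and 4 genes were lower without wild-type mouse 1. Among the genes that did not pass, the IgA heavy chain gene Igha was at 228 to 810.4 CPM and 277, 175 and 284 CPM (adjusted p = 0.059, with 0.0158 and 0.0488 without wild-type mice 1 and 2).

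Every tested gene of the interferon-gamma response was higher in DSS, 21 of 21, and the DSS mice lay above the wild-type mice for each of them. Mouse 8 was the highest mouse for all 21. The median log2 fold change was 4.16 with all mice and 1.88 without mouse 8, and 13 of the 21 were higher without it. Gbp2, a guanylate-binding protein that attacks intracellular pathogens (ENSMUSG00000028270, chr3:142620602-142638008 on GRCm38), was at 35.4, 31.9 and 32.6 CPM in wild-type mice 1, 2 and 4 and at 295, 160.5 and 2111 CPM in DSS mice 5, 6 and 8. Its log2 fold change was 4.68 ± 0.95 (adjusted p = 6.42e-04) and 2.77 without mouse 8 (adjusted p = 0.0145). Cxcl9 and Cxcl10, chemokines that attract activated T cells through CXCR3, were at 21.9, 8.55 and 386 CPM and 21, 9.64 and 482 CPM in mice 5, 6 and 8, against 0.41 to 0.838 CPM and 0.686 to 0.932 CPM in the controls. For both, mouse 5 was above mouse 6 and mouse 8 above mouse 5 by over 10 times. The genes that were not called without mouse 8 were Cxcl11, Gbp7, Irgm1, Irf1, Ido1, Ciita, Cd274 and Ubd, with adjusted p from 0.0571 to 0.594. Of these Cd274, the PD-L1 ligand, was at 40.2, 30.7 and 612 CPM against 12 to 13 CPM (4.19 ± 0.94, and adjusted p = 0.119 without mouse 8). Irf1, a transcription factor of the pathway, was at 185, 167 and 690.1 CPM against 139 to 160.4 CPM (1.24 ± 0.40, and adjusted p = 0.594 without mouse 8).

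The antiviral genes that type I interferon induces showed the same order of mice. All 17 were higher with all mice, with a median log2 fold change of 3.69, and 10 were higher without mouse 8, with a median of 1.88. Isg15, a ubiquitin-like protein, was at 2.21 to 2.82 CPM in wild-type mice and at 35.1, 20.9 and 232 CPM in DSS mice 5, 6 and 8 (5.27 ± 0.91, and 3.49 without mouse 8). Zbp1, a sensor of Z-form nucleic acid that triggers necroptosis, was less dependent on mouse 8, at 5.93 to 8.38 CPM and 112, 118 and 365 CPM (4.79 ± 0.69, and 4.01 without mouse 8, adjusted p = 1.25e-04). Ifih1 and Irf7 lost their calls without mouse 8 (adjusted p = 0.159 and 0.122). Of 9 genes of MHC class II presentation 6 were higher, and without mouse 8 only H2-DMb1 was (1.94 ± 0.44 and 1.20). H2-Ab1 was at 312, 223 and 633 CPM in mice 5, 6 and 8 against 127 to 196 CPM (1.27 ± 0.35, and adjusted p = 0.116 without mouse 8). B cells, whose markers moved in the same order of mice, also express class II genes, and their part in this result was not tested.

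Of 15 genes of NF-kB feedback and the acute response 12 were higher and none was lower with all mice. Without mouse 8 there were 7 higher and 1 lower, Tnip1 (-0.68, adjusted p = 0.00496). Tnip3, a binding partner of the inhibitor A20, was the most even of the group. It was at 18.6, 16.6 and 16.7 CPM in wild-type mice 1, 2 and 4 and at 135, 124 and 146 CPM in DSS mice 5, 6 and 8, and its log2 fold change was 2.96 ± 0.27 with all mice and 2.90 without mouse 8. Tnfaip3, which encodes A20, was at 66.2 to 74.8 CPM and 121, 121 and 422 CPM (1.65 ± 0.32), with mouse 8 well above the others. Socs3, the feedback inhibitor of STAT3 signalling, rose in all 3 mice from 7.01 to 10 CPM to 186, 227 and 694 CPM (5.39 ± 0.69). Socs1, the feedback inhibitor of interferon signalling, was at 10.8, 8.48 and 97.9 CPM against 1.93 to 2.62 CPM and lost its call without mouse 8 (adjusted p = 0.064).

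**Figure D3:**
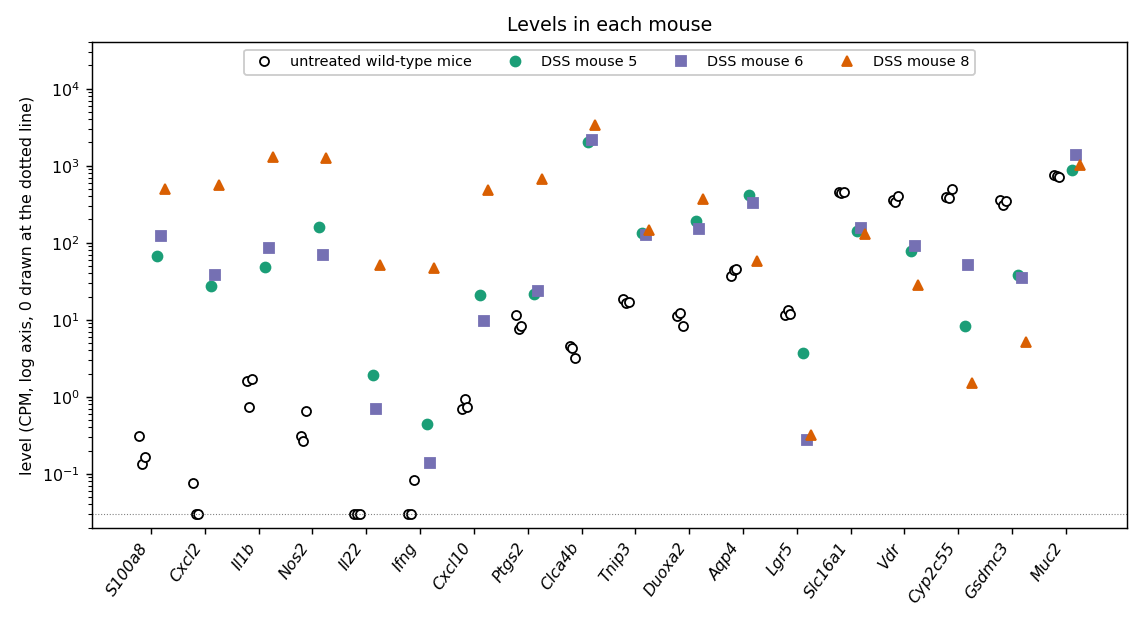
Levels of 18 genes in each of the 6 mice, as CPM on a log axis, with open circles for the wild-type mice and filled symbols for DSS mice 5, 6 and 8, and with a level of 0 drawn at the dotted line. Ifng, Il1b, Cxcl10 and Ptgs2 stand far higher in mouse 8 than in mice 5 and 6, Clca4b and Tnip3 are similar in all 3 DSS mice, and Aqp4 is lower in mouse 8 than in the other DSS mice.

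The antimicrobial and defence genes of the epithelium rose in mice 5 and 6 as well as in mouse 8. Of 21 tested 13 were higher with all mice and 13 without mouse 8. Pigr, the receptor that carries IgA into the lumen, was lower with all mice (adjusted p = 0.024) but not without mouse 8 (adjusted p = 0.173). The median of the group was 2.57 log2(CPM + 1) units above the wild-type mean in mouse 5, 1.88 in mouse 6 and 2.15 in mouse 8. Nos2, the inducible nitric oxide synthase (ENSMUSG00000020826, chr11:78920787-78960254 on GRCm38), was at 0.305, 0.266 and 0.656 CPM in wild-type mice 1, 2 and 4 and at 158, 69.4 and 1251 CPM in DSS mice 5, 6 and 8. The log2 fold change was 10.23 ± 1.28 with all mice (adjusted p = 5.56e-06) and 8.12 without mouse 8 (adjusted p = 6.80e-06). Duox2, the oxidase that makes hydrogen peroxide at the epithelial surface, went from 59 to 68.2 to 379.8, 570.4 and 987 CPM (3.35 ± 0.33). Its maturation factor Duoxa2 went from 8.37 to 12.2 to 194, 152 and 372 CPM (4.50 ± 0.43), with 41.1% of its windows shared with Duoxa1. Pla2g2a, a secreted phospholipase that kills Gram-positive bacteria, was highest in mouse 5 and lowest in mouse 8 (86.2, 56.1 and 36.8 CPM in mice 5, 6 and 8 against 0.762 to 0.902 CPM, 6.17 ± 0.67). Retnlb, the goblet cell protein RELM beta, was at 29.5, 9.03 and 25.4 CPM against 0 to 0.0762 CPM, a ratio of means of 429.5 (95% counting interval 119 to 3547). Lrg1 and the fucosyltransferase Fut2 were also even across the mice, Lrg1 at 91.8, 69.9 and 119.5 CPM against 2.59 to 4.93 CPM (4.72 ± 0.58) and Fut2 at 389, 439 and 379 CPM against 104 to 139 CPM (1.76 ± 0.29). Saa3 and Lcn2, acute phase proteins of epithelium and myeloid cells, were highest in mouse 8, Lcn2 at 29.9, 40 and 375 CPM against 1.39 to 1.8 CPM (6.47 ± 0.92). The lectins Reg3b and Reg3g did not pass (adjusted p = 0.289 and 0.223). Reg3g was at 1.01, 0 and 3.84 CPM in mice 5, 6 and 8, so mice 5 and 8 had counts and mouse 6 had none. Reg4 was at 288, 139 and 26.3 CPM against 286 to 307 CPM (adjusted p = 0.214, and 0.0307 without mouse 5).

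Of 18 goblet cell and mucus genes 3 were lower and none was higher. The share lower, 16.7%, was near the 16.3% of all genes, and the median log2 fold change was 0.04. Without mouse 8 there was 1 lower gene, without mouse 6 there were 6, without mouse 5 there were 2 and 1 higher, and without wild-type mouse 1 or 4 there was 1 lower gene. Muc2, the gel-forming mucin of the colon, was at 753, 724 and 719 CPM in wild-type mice 1, 2 and 4 and at 868, 1386 and 1012 CPM in DSS mice 5, 6 and 8. All DSS values were above the controls, but the log2 fold change of 0.57 ± 0.26 did not pass (adjusted p = 0.0974). Atoh1, the transcription factor of the secretory lineage, was lower with all mice and without mouse 8, at 19.8, 26.7 and 11 CPM against 35.9 to 47.7 CPM (-1.08 ± 0.28). Agr2, which folds mucins, and Bcas1 were lower with all mice (-0.64 ± 0.22 and -0.87 ± 0.30) and not without mouse 8 (adjusted p = 0.199 and 0.162), and Bcas1 not without mouse 5 either (adjusted p = 0.0809). Enteroendocrine genes were higher in 9 of 15, lower in 1, and higher in 3 without mouse 8. Gcg, which encodes proglucagon of the L cells, rose in all 3 mice from 18.3 to 22.6 CPM to 63.5, 63.7 and 113 CPM (1.95 ± 0.27). The chromogranins Chga and Chgb were higher (1.00 ± 0.24 and 1.14 ± 0.26). Neurog3, the factor of endocrine progenitors, was the lower gene, with 0.126, 0 and 0.08 CPM against 0.492 to 0.733 CPM and an adjusted p of 0.0286 with all mice and 0.0782 without mouse 8.

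Crypt stem cell genes were called in both directions, at shares not far from those over all genes. Of 15 stem cell genes and Wnt targets 4 were lower (26.7%, against 16.3% of all genes) and 3 were higher (20.0%, against 17.7%). Without mouse 8, 2 were lower and 2 higher, where 10.2% and 10.4% of all genes were. Lgr5, the receptor that marks the crypt base stem cell, was at 11.4, 13.5 and 11.9 CPM in wild-type mice 1, 2 and 4 and at 3.71, 0.274 and 0.32 CPM in DSS mice 5, 6 and 8. All DSS mice were below the controls, mice 6 and 8 most, and the log2 fold change was -3.04 ± 0.56 (adjusted p = 2.44e-04) and -2.60 without mouse 8. Ascl2, the transcription factor of the same cells, was at 5.18 to 6.81 CPM and 4.72, 0.41 and 0.72 CPM, near the controls in mouse 5 (-1.63 ± 0.48, and adjusted p = 0.069 without mouse 8). The Wnt targets Axin2 and Rnf43 did not pass (adjusted p = 0.0778 and 0.101), although Axin2 was lower without mouse 5 (adjusted p = 0.0231), and Nkd1 and Ephb2 were higher (0.91 ± 0.26 and 0.67 ± 0.15). Genes of the regenerative, fetal-like epithelium were higher in 14 of 20 and lower in none, and in 10 without mouse 8, with median log2 fold changes of 2.07 and 1.28. Ly6a, the surface protein Sca-1 of regenerating crypts, went from 164 to 209 to 839, 886 and 1510 CPM (2.50 ± 0.47). Ly6a is also made by T cells and endothelium, whose markers rose, and their part in this value was not tested. The epidermal growth factor receptor ligands Areg and Ereg went from 6.93 to 15.2 to 44.3, 34.8 and 114 CPM (2.72 ± 0.54) and from 4.93 to 6.56 to 21.4, 28 and 185 CPM (3.78 ± 0.68). Clu, a marker of revival stem cells, did not pass (adjusted p = 0.204).

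Cell cycle genes were highest in mouse 5. Of 20 tested 5 were higher and none was lower, and no member had its highest DSS level in mouse 8. Without mouse 8 there were 6 higher, but without mouse 5 there were 1 higher and 1 lower, and the median log2 fold change went from 0.35 with all mice to -0.092. The higher count was also 1 without wild-type mouse 4 and 3 without wild-type mouse 2. Mki67 was at 281, 150.5 and 95.8 CPM in mice 5, 6 and 8 against 122 to 177 CPM (adjusted p = 0.576), so mouse 5 was above the controls and mouse 8 below them. Ccnb1, a mitotic cyclin, was higher with and without mouse 8, at 95, 55.6 and 37.3 CPM against 22.1 to 37.3 CPM (1.06 ± 0.34 and 1.32), and lost its call without mouse 5 (adjusted p = 0.176).

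Of 17 genes of tight junctions and adhesion 6 were lower and 1 was higher. Ocln, which encodes occludin, was lower to a similar level in each mouse, at 80.2, 98 and 71.2 CPM in mice 5, 6 and 8 against 210.5 to 221 CPM (-1.37 ± 0.15, and -1.27 without mouse 8). Cldn2, a pore-forming claudin of the crypt, was at 169.7, 39.1 and 22.3 CPM against 237 to 246 CPM (-1.64 ± 0.40), lower in mice 6 and 8 than in mouse 5 as Lgr5 was. Cldn4 was the higher gene, at 117, 109.9 and 395 CPM against 44.4 to 87.7 CPM (1.75 ± 0.47), and it lost its call without mouse 8 (adjusted p = 0.142). Without mouse 8, 6 members were lower as well, 5 of them the same genes.

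Of 25 transporters of the colonocyte 11 were lower, a larger share than the 16.3% over all genes. Another 4 were higher, a share no larger than the 17.7% over all genes. Without mouse 8, 5 were lower and 4 higher, where 10.2% and 10.4% of all genes were. Slc16a1, the transporter MCT1 that takes up butyrate, was at 449, 439 and 455 CPM in wild-type mice 1, 2 and 4 and at 141, 154 and 130.5 CPM in DSS mice 5, 6 and 8. The DSS mice differed little among themselves, and the log2 fold change was -1.66 ± 0.15 (adjusted p = 2.54e-07) and -1.60 without mouse 8. Slc5a8, the sodium-coupled butyrate transporter, was at 132, 180.5 and 88.6 CPM against 331 to 372 CPM (-1.41 ± 0.24). The chloride channel Cftr was at 34.4, 37 and 6.16 CPM against 76.8 to 98.7 CPM (-1.81 ± 0.46). Hsd11b2, which shields the mineralocorticoid receptor from glucocorticoid, was at 108, 129 and 43.3 CPM against 248 to 341 CPM (-1.58 ± 0.31). The chloride-bicarbonate exchanger Slc26a3 was at 279, 624 and 49.8 CPM against 725 to 1017 CPM without passing (adjusted p = 0.0636, and 0.00567 without mouse 6, the DSS mouse nearest to the controls). Clca4b, a calcium-activated chloride channel regulator (ENSMUSG00000074195, chr3:144910921-144932529 on GRCm38), was the group's largest change, at 4.57, 4.33 and 3.2 CPM in wild-type mice 1, 2 and 4 and 2004, 2149 and 3405 CPM in DSS mice 5, 6 and 8. The log2 fold change was 9.28 ± 0.90 with all mice (adjusted p = 3.39e-07, and 6.68e-07 without mouse 8), and 24.8% of its windows are shared with Clca4a, which was higher too (2.36 ± 0.43). The sodium-proton exchanger Slc9a3, an apical transporter of absorptive cells, was also higher, at 22.5, 48 and 28.6 CPM against 1.22 to 1.73 CPM (4.44 ± 1.06). The water channel Aqp4 was higher in mice 5 and 6 but close to the controls in mouse 8, at 414, 323 and 58.3 CPM against 37.3 to 45.9 CPM (2.64 ± 0.55 with all mice and 3.11 without mouse 8).

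Nuclear receptors and transcription factors of the mature epithelium were lower in 9 of 16 and higher in none, and in 6 without mouse 8. Vdr, the vitamin D receptor, was at 355, 336 and 398 CPM in wild-type mice 1, 2 and 4 and at 77.8, 91.4 and 28.1 CPM in DSS mice 5, 6 and 8 (-2.46 ± 0.31, adjusted p = 6.24e-06). Without mouse 8 the log2 fold change was -2.10 (adjusted p = 1.04e-05). Hnf4a, which maintains enterocyte identity, was at 405, 499 and 327 CPM against 621 to 840.1 CPM (-0.80 ± 0.14), and Nr1i2, the xenobiotic receptor PXR, at 51.9, 64.8 and 26 CPM against 120.1 to 130.5 CPM (-1.39 ± 0.22). Of 25 genes of cytochromes P450 and detoxification 12 were lower and 2 higher, with 10 and 2 without mouse 8. Cyp2c55, a P450 of the colon that oxidises arachidonic acid (ENSMUSG00000025002, chr19:39007019-39042693 on GRCm38), was at 394, 379.5 and 494 CPM in wild-type mice 1, 2 and 4 and at 8.24, 51.8 and 1.52 CPM in DSS mice 5, 6 and 8. Each DSS mouse was far below the controls and mouse 6 least so (-4.36 ± 0.87, adjusted p = 5.33e-04). The sulfotransferase Sult1a1 was at 35.1, 36.2 and 7.2 CPM against 199.7 to 239 CPM (-3.06 ± 0.46). Gpx2, a glutathione peroxidase of the crypt, was one of the higher genes and was highest in mouse 5, at 968, 472 and 743 CPM against 289 to 322 CPM (1.26 ± 0.26).

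Mitochondrial genes were lower by small amounts. Of 22 genes of oxidative phosphorylation 18 were lower and none higher with all mice, with a median log2 fold change of -0.49, and 4 of them were lower without mouse 8, with a median of -0.33. Sdha, a subunit of succinate dehydrogenase, was at 464, 434 and 313 CPM in mice 5, 6 and 8 against 568 to 606 CPM (-0.54 ± 0.11, and -0.38 without mouse 8, adjusted p = 0.00823). Mouse 8 was the lowest DSS mouse for 20 of the 22. Of 21 genes of fatty acid oxidation 14 were lower and 1 higher, and 10 and 1 without mouse 8. Acadm, which oxidises medium-chain fatty acids, was at 96.5, 103 and 58.9 CPM against 191 to 205 CPM (-1.20 ± 0.16), while Acadl, which oxidises long-chain ones, was higher at 261, 271 and 337 CPM against 139 to 164 CPM (0.96 ± 0.15). Ppargc1a, the coactivator of mitochondrial genes, was at 18.2, 35.5 and 6.32 CPM against 60 to 102 CPM (-2.04 ± 0.47). Of 18 genes of glycolysis and hypoxia 7 were higher and 1 was lower, with 3 and 1 without mouse 8 and 4 higher without wild-type mouse 4. Hk2, an inducible hexokinase, was at 532, 491 and 1060 CPM against 136 to 180.5 CPM (2.11 ± 0.37), and Pfkfb3, which raises glycolytic flux, at 94.5, 73.4 and 422 CPM against 11.7 to 16.4 CPM (3.85 ± 0.61). The epithelial markers Epcam and Cdh1 did not pass with all mice (adjusted p = 0.185 and 0.0915; without mouse 8 0.171 and 0.0247), while Krt8, Krt18 and Krt19 were lower, Krt8 at 2150, 2688 and 1648 CPM against 2995 to 3581 CPM (-0.58 ± 0.15). What part the share of epithelium in each sample has in the falls of epithelial genes was not tested.

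Metalloproteinases and their inhibitors were higher in 11 of 16 and lower in 1, with the same counts without mouse 8. Mmp3, stromelysin of fibroblasts, was at 59.2, 79 and 280.3 CPM in mice 5, 6 and 8 against 2.9 to 4.53 CPM (5.29 ± 0.71), and Mmp10, made by migrating epithelium, at 15.2, 27.8 and 131 CPM against 0.738 to 0.866 CPM (6.13 ± 0.85). The inhibitor Timp1 was higher at 20.2, 30.1 and 91.8 CPM against 1.98 to 3.2 CPM (4.16 ± 0.63). The inhibitor Timp4 was the lower gene, with 2.27, 1.91 and 1.28 CPM against 16.7 to 19.6 CPM (-3.28 ± 0.62, and -3.09 without mouse 8). Wound matrix and plasminogen genes were higher in 13 of 22 and lower in none, and in 10 without mouse 8. The fibrillar collagens Col1a1 and Col3a1 did not pass (adjusted p = 0.32 and 0.082), whereas the basement membrane collagen Col4a1 and tenascin, Tnc, were higher (1.21 ± 0.31 and 1.28 ± 0.31). Plaur, the urokinase receptor, was at 45.8, 44.8 and 320.1 CPM against 5.53 to 7.38 CPM (4.40 ± 0.61).

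In the stromal niche 10 of 18 genes were higher and none lower, and 8 were higher without mouse 8. Grem1, an antagonist of bone morphogenetic proteins made by crypt base fibroblasts, was at 264, 426 and 1060 CPM against 89.5 to 98.1 CPM (2.63 ± 0.38), and Rspo3, which amplifies Wnt signals, at 12.8, 18.9 and 29.6 CPM against 5.94 to 7.66 CPM (1.61 ± 0.27). Wnt5a, made at wound beds, was even across the mice at 31.1, 25.8 and 27.5 CPM against 13.6 to 14.7 CPM (1.00 ± 0.23). Inhba, a subunit of activin A, was at 8.75, 17.4 and 212 CPM against 4.92 to 7.53 CPM and lost its call without mouse 8 (adjusted p = 7.20e-04 and 0.0968). Endothelial genes were higher in 11 of 13 and in 8 without mouse 8. The adhesion molecules Selp and Vcam1, which slow and hold leukocytes, went from 0.984 to 1.4 to 8.5, 18.7 and 29.1 CPM (3.95 ± 0.40) and from 19.1 to 20.3 to 83.1, 81.9 and 159.9 CPM (2.47 ± 0.25). Of 14 prostaglandin and lipoxygenase genes 6 were higher and 1 was lower, with 3 and 1 without mouse 8. Ptgs2, the inducible cyclooxygenase, was at 11.4, 7.66 and 8.37 CPM in wild-type mice 1, 2 and 4 and 21.8, 23.2 and 668 CPM in DSS mice 5, 6 and 8, so that mouse 8 held 93.7% of the summed level (4.70 ± 0.85 with all mice and 1.30 without mouse 8, adjusted p = 0.015). Hpgd, the enzyme that inactivates prostaglandins, was the lower gene, at 54.8, 94.3 and 26.6 CPM against 212 to 237 CPM (-1.93 ± 0.31).

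Genes of cell death moved both ways, with 7 of 14 higher and 4 lower, and 5 and 3 without mouse 8. The lower genes were the gasdermins Gsdmc2, Gsdmc3 and Gsdmc4 of the colonocyte and the inflammasome adaptor Pycard, and Gsdmc4 lost its call without mouse 8 (adjusted p = 0.0878). Gsdmc3 was at 37.7, 34.7 and 5.2 CPM in mice 5, 6 and 8 against 306 to 356 CPM (-3.69 ± 0.55, and -3.21 without mouse 8), and 46.0% of its windows are shared with Gsdmc2. The pore-forming Gsdmd, the necroptosis kinase Ripk3 and its effector Mlkl were higher (1.00 ± 0.21, 2.78 ± 0.39 and 1.72 ± 0.38), and Ripk3 was at 108, 81.6 and 216 CPM against 19.3 to 19.9 CPM. Complement and acute phase genes were higher in 12 of 14 and in 9 without mouse 8. C3, the central complement component, was at 464, 338 and 1120 CPM against 69 to 107 CPM (2.86 ± 0.51), and Hp, haptoglobin, at 33.7, 51.3 and 459.6 CPM against 1.31 to 1.6 CPM (6.97 ± 1.01).

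By size over all genes, the 10 largest rises among genes called without overlap, with at least 5 CPM in the DSS mean, were Cxcl2, Il1f9, Cxcr2, Cxcl3, S100a9, Clec4e, Il22, Gm5483, Serpina3m and Nos2. For Cxcl2 the ratio of means was 8433 (95% counting interval 1514 to 333100). Il1f9, the epithelial and myeloid cytokine IL-36 gamma, had no count in the controls and was at 1.82, 6.63 and 89.6 CPM in mice 5, 6 and 8, at least 133-fold above the limit of a count of 0. Gm5483, a stefin-like gene, and Serpina3m, an acute phase protease inhibitor, had no count there either and were at 2.01, 6.91 and 43.7 CPM and 9.76, 11.6 and 29.3 CPM. The 10 largest falls were Mettl7a2, Klk15, Cyp2c55, Gm17322, Minar1, Cyp2w1, Mettl7a3, Fut9, Abcc6 and Gsdmc3. Mettl7a2, a methyltransferase-like gene, was at 0.315, 0.205 and 0 CPM against 13.6 to 17.6 CPM (-6.37 ± 0.86), with 63.2% of its windows shared with Mettl7a1. Minar1, a NOTCH2-associated receptor, was at nearly the same level in the 3 DSS mice, 0.441, 0.479 and 0.48 CPM against 6.81 to 10.6 CPM (-4.15 ± 0.74). Fut9, a fucosyltransferase that makes the Lewis x antigen, was at 7.74, 2.8 and 0.96 CPM against 49.1 to 64.4 CPM (-3.83 ± 0.63), and the transporter Abcc6 at 0.944, 1.23 and 0.08 CPM against 9.35 to 11.4 CPM (-3.74 ± 0.62). All 20 kept their calls without mouse 8, but they were ranked and held to the 5 CPM minimum with mouse 8 included.

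The same size order was applied to the calls lost when a given DSS mouse was left out, and a call can be lost with more than 1 mouse. Of those lost without mouse 8 the 5 largest were Gbp10, Ifng, Gm4841, Ly6i and Ido1. Gbp10, a guanylate-binding protein with 84.1% of its windows shared with Gbp6, was at 0.629, 0.274 and 20.9 CPM, Ly6i at 0.881, 1.16 and 63.6 CPM, and Ido1, which breaks down tryptophan, at 17.9, 2.53 and 315 CPM in mice 5, 6 and 8, with adjusted p = 0.131, 0.142 and 0.141 without mouse 8. Of those lost without mouse 5 they were Gm10095, Ighv6-3, Ighv1-18, Upk3b and Hsd3b2, and Ighv6-3, an immunoglobulin variable gene, was at 17.9, 0.479 and 4.08 CPM, highest in mouse 5 (adjusted p = 0.176 without it). Of those lost without mouse 6 they were Gm10095, Ighv1-18, Cps1, Hoxd12 and Defb45. Cps1, an enzyme of the urea cycle, was at 18.6, 4.31 and 1.28 CPM against 34 to 45.5 CPM (adjusted p = 0.0884 without mouse 6 and 0.107 without mouse 8), and Gm10095 was high in a single control (0.152, 63.3 and 0.082 CPM in wild-type mice 1, 2 and 4), and its log2 fold change of -6.22 ± 2.31 became 1.15 without wild-type mouse 2.

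**Figure D4:**
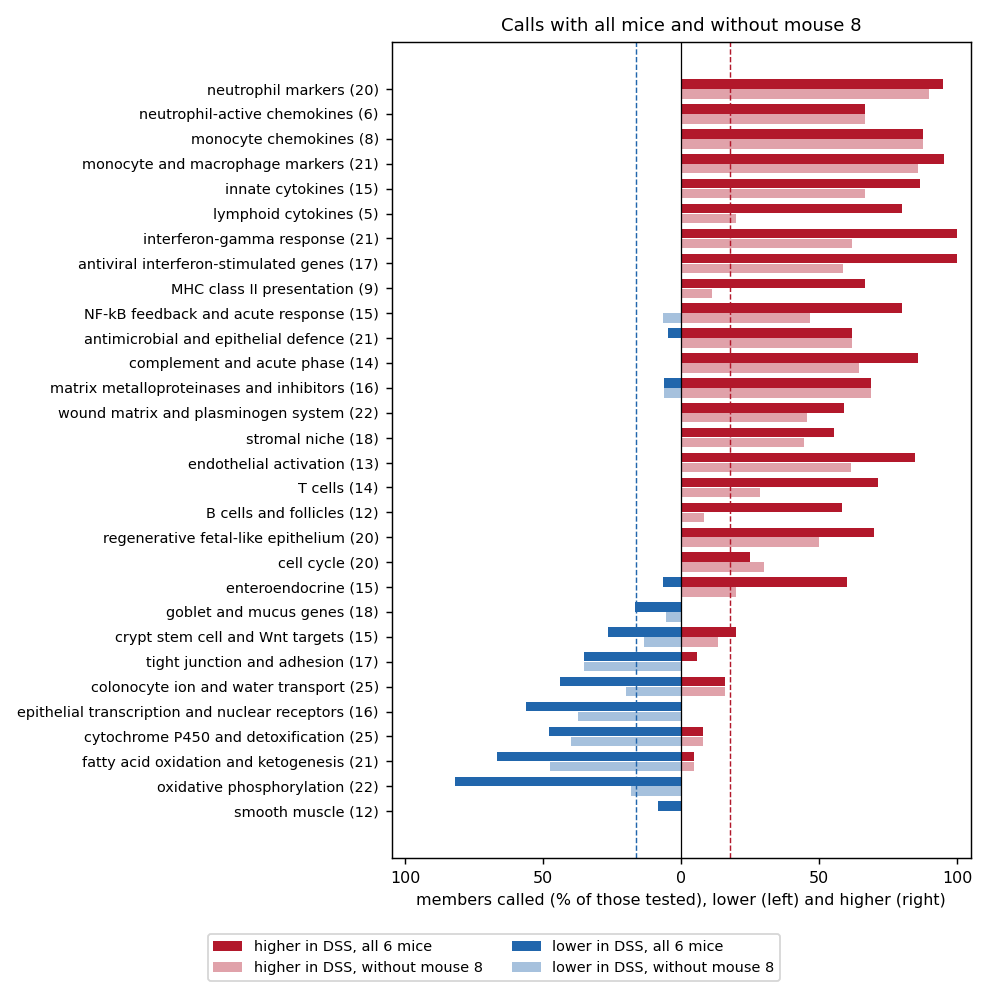
Share of the members tested in each gene group that were called lower (left) or higher (right) in DSS, with dark bars for all 6 mice and light bars without mouse 8, and dashed lines at the shares over all genes with all mice (17.7% higher and 16.3% lower). The bars shorten most without mouse 8 for oxidative phosphorylation, B cells, MHC class II and lymphoid cytokines, and keep their length for the metalloproteinases, the antimicrobial genes and the chemokines.

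Against the other models that share these controls, DSS was tested directly. In DSS 2114 genes were higher (11.4%) and 2093 lower (11.2%) than in the 3 mice given DNBS, rectal dinitrobenzene sulfonic acid, and without mouse 8 the total fell from 4207 to 1604. In a fit of these 2 groups alone 6 genes passed. Of 20 neutrophil markers 17 were higher in DSS than in DNBS, of 7 fat genes 4 and of 12 B cell genes 12. These member counts were made with mouse 8 included and were not repeated without it, so how far they rest on mouse 8 is not known. Both the DNBS and the IL-10 mice are labelled Balb/C. H2-Ea-ps had 0 to 1 counts in the libraries of each of these groups, which goes against that label as it did for the DSS mice. The 4 mice of the IL-10 model received an antibody that blocks IL-10 according to their labels, while the study names Il10-/- mice. Against these 4 mice 4679 genes were higher in DSS (25.1%) and 4584 lower (24.6%), and the total of 9263 ran from 8129 to 8799 when a DSS mouse was left out. Of 21 antimicrobial genes 9 were lower in DSS than in the IL-10 model and none was higher, and of 8 monocyte chemokines 7 were higher in DSS. Other groups differed as much. Higher in DSS were 11 of 12 smooth muscle genes, 13 of 15 genes of enteric neurons and glia and 15 of 18 of the stromal niche. All 22 genes of oxidative phosphorylation were lower. What part the make-up of the tissue pieces has in these counts was not tested. Clca4b was at 2519 ± 771 CPM (SD, n = 3) in DSS, 733 ± 782 CPM (SD, n = 3) in DNBS and 4027 ± 1025 CPM (SD, n = 4) in the IL-10 model. The log2 difference was 1.78 from DNBS (adjusted p = 0.0455) and -0.68 from the IL-10 model (adjusted p = 0.352).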

How the data were processed

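Poly(A) RNA of the colon was sequenced in paired-end libraries, 1 per mouse. The authors deposited raw counts per gene, whole numbers without normalization. The submitters' processing notes name Trimmomatic, HISAT2, HTSeq and GRCm38, without versions, and whether strand was used in counting is not given in the sources used here. Tests covered the 18616 of 54532 genes whose counts averaged 3 or more across the 29 libraries. The 92 spike-in sequences held 0 reads in total and were removed.

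Counts were scaled by TMM and fitted with edgeR 4.0.16 in R 4.3.3, in a quasi-likelihood model of all 9 groups without covariates, and p-values were adjusted by Benjamini-Hochberg over all genes tested (threshold 0.05). Each standard error was obtained by dividing the size of the log2 fold change by √F. Differences of single mice from the wild-type mean are on log2(CPM + 1). For genes with no count in the controls the bound uses 3 counts in the shallowest control library (0.246 CPM), and for those with 1 to 3 counts the ratio of means has an exact 95% counting interval. Intervals and floors cover counting error only. In simulated counts of the 18616 genes for DSS against wild-type, 169 of 200 genes changed 4-fold or 8-fold were recovered and 3 others were called. Every simulated DSS mouse had the same change. The simulation therefore does not show how many calls are false where a mouse stands apart as mouse 8 did, or how smaller changes fare.

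The members, 51 gene lists (731 genes, 689 tested) and the named genes were chosen with earlier results of these data known. Genes are named from the lists and by a rule that took the 10 highest rises and 10 deepest falls among genes without overlap and at 5 CPM or more, and the 5 largest calls that each DSS mouse decided. Shared sequence is the percentage of 50-base exon windows of a gene found in another gene. Promoters are from RefSeq on GRCm38.p6, whose tables held windows for 5 of 6 neutrophil chemokines, 15 of 21 interferon-gamma, 12 of 17 antiviral and 12 of 15 NF-kB feedback genes. Gene positions are from GENCODE M21. The alternatives were RLE and upper quartile scaling, no filter and filterByExpr, robust dispersions, edgeR and DESeq2 1.42.0 on the groups compared alone, voom with sample weights in limma 3.58.1, stricter thresholds, and leaving out each mouse in turn. Some genes are not reported here.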

Additional observations from a re-analysis of the deposited data

How the results depend on the processing

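The 3299 higher and 3037 lower genes became 2035 and 1834 at an adjusted p under 0.01, and 1947 and 1231 where a log2 fold change of at least 1 in size was also required. Leaving out each of the 6 mice in turn gave 1944 to 3236 higher and 1897 to 3078 lower genes, lowest without DSS mouse 8 in both, and kept 3736 to 5687 of the 6336 calls. Under the other scalings, filters and tools the counts ran from 2478 to 3698 higher and from 2044 to 3330 lower genes, and 47.6% to 58.3% of the called genes were higher. The 413 called members of the lists ran from 274 to 414 without a mouse, lowest without DSS mouse 8. The 4207 genes that differed between DSS and DNBS became 6 in edgeR on the 2 groups alone, 1941 in DESeq2, 2550 in limma voom, 1961 at an adjusted p under 0.01 and 1979 with the fold threshold, and 1604 to 4621 without a DSS mouse. The 9263 genes that differed between DSS and the IL-10 model became 5949 in edgeR on the 2 groups alone and 4421 with the fold threshold, and ran from 8129 to 8799 without a DSS mouse. The causes were not tested.

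Of the 195 genes named, 39 lost their call without DSS mouse 8, 10 without mouse 5, 9 without mouse 6, and 13, 10 and 13 without wild-type mice 1, 2 and 4. In edgeR on the 2 groups alone 37 lost it, among them Il22, Il1f9 and Ptgs2. The log2 fold change turned for 5 genes that had not passed. Il23a ran from -0.64 (without DSS mouse 8) to 2.02 over the left-out mice and was -0.19 in voom, Mki67 ran from -0.29 (without DSS mouse 5) to 0.53, and Pf4 from -0.074 (without DSS mouse 6) to 0.49. Pou2f3 ran from -0.82 (without DSS mouse 6) to 0.52, with -0.012 and -0.040 without wild-type mice 2 and 4, and H2-Ea-ps from -2.30 to 0.00 (without wild-type mouse 1). It also turned for Gm10095, which had passed and ran from -7.09 to 1.15 (without wild-type mouse 2). No paired analysis was possible because the DSS mice (5, 6 and 8) and the wild-type mice (1, 2 and 4) share no replicate number.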

Other observations

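Several gene groups outside the main account also differed. Genes of the enteric neurons and glia were higher in 9 of 15 and lower in none, and 2 were higher without mouse 8, 5 without mouse 6 and 4 without any 1 of the wild-type mice. Gfap, the intermediate filament of reactive glia, was at 21.6, 31.9 and 55.9 CPM in DSS mice 5, 6 and 8 against 5.66 to 14.7 CPM in wild-type mice (1.80 ± 0.45), and Vip, a neuropeptide of secretomotor neurons, at 46.5, 91.7 and 86.3 CPM against 24.2 to 34.1 CPM (1.37 ± 0.43), with adjusted p = 0.0171 with all mice and 0.0599 without mouse 8. Of 18 genes of the unfolded protein response 9 were higher and 1 was lower, with 4 and 1 without mouse 8. Hspa5, the chaperone BiP, was at 886, 989 and 1336 CPM against 482 to 522 CPM (1.08 ± 0.25). The lower gene was Ern2, the sensor specific to mucosal secretory cells, at 29.1, 42 and 15.8 CPM against 64.2 to 71 CPM (-1.23 ± 0.29). Of 21 genes of sterol and fatty acid synthesis 6 were lower and none was higher, with 2 lower without mouse 8 and 2 without wild-type mouse 4. Hdc, which makes histamine in mast cells and neutrophils, was at 7.3, 22.7 and 260.0 CPM against 0.246 to 0.4 CPM (8.19 ± 1.11), while the mast cell receptor Kit did not pass (adjusted p = 0.29). Of 5 eosinophil genes 3 were higher, and Il5ra, the IL-5 receptor that B-1 cells and others also express, was at 10.5, 5.4 and 56.1 CPM against 0.457 to 0.738 CPM (5.20 ± 0.73). The tuft cell factor Pou2f3 did not pass (adjusted p = 0.892), and of 11 tuft cell genes 5 were higher and 3 without mouse 8 or without any 1 of the wild-type mice, among them Alox5ap, which myeloid cells also express.

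Of the clock genes, Arntl, which encodes BMAL1, was lower in all 3 DSS mice, at 33.2, 29.7 and 28.9 CPM against 70.7 to 84.1 CPM (-1.36 ± 0.18, and -1.32 without mouse 8), and Per3 was lower as well, at 8.94, 13.7 and 5.12 CPM against 25.2 to 31.7 CPM (-1.58 ± 0.40). Of 5 genes of the same phase as Arntl 3 were lower and 1 was higher, but without mouse 8 there were 1 lower and none higher, and without wild-type mouse 1 or 2 there was 1 lower. Of 10 genes of the opposite phase 1 was lower and 1 was higher, with 1 and 2 without mouse 8. The hour of sampling is not given in the labels. For 5 of the 6 Hox genes that mark the distal colon every DSS mouse lay below every wild-type mouse, as for 24.0% of all genes, and 1 of them, Hoxd12, passed (-1.99 ± 0.72, adjusted p = 0.0345), a call lost without any 1 of the 6 mice (adjusted p = 0.0514 to 0.111), while Hoxb13 stood at 195, 245 and 87.2 CPM against 408 to 575 CPM without passing (adjusted p = 0.157). The labels do not give the position of the tissue piece along the colon. The study's methods name the distal region for colon RNA that was put on microarrays, while these libraries are RNA-seq. The part of position in the epithelial differences was not tested. Of 7 fat genes 1 was higher (2 without mouse 8, and 0 without mouse 5 or wild-type mouse 2 or 4). Of 11 squamous genes 1 was higher, and none without mouse 5, mouse 8 or any 1 of the wild-type mice, and of 3 pancreatic genes tested 1 was lower, Cela1, which wild-type colon held at 444 to 511 CPM, while the pancreatic enzymes Prss2 and Cpb1 were under 2 CPM in each of the 6 mice.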
